A study of Mus musculus with 6 samples.

Results

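The tubulin isotype family comprised 10 of the 36172 genes in the deposited expression table, 4 alpha tubulins (Tuba1a, Tuba1b, Tuba1c and Tuba4a) and 6 beta tubulins (Tubb2a, Tubb2b, Tubb3, Tubb4a, Tubb5 and Tubb6), each matched by its gene symbol. The family was chosen on measured values, the higher level of Tubb4a in Trp53 R270H/R270H organoids, so the levels of Tubb4a in that genotype are given as a description with no test. RNA was sequenced from organoids, which are cultures of tumor epithelial cells grown in a gel, prepared from small intestinal tumors of C57BL/6 mice aged 15 to 20 weeks. According to the labels all 6 libraries carried the Apc Δ716 truncation. The paper reports that tumor cells of Apc Δ716 mice had lost the wild-type Apc allele. The libraries differed in Trp53, the gene of the tumor suppressor p53, with 2 libraries each of Trp53 +/+, Trp53 flox/flox and Trp53 R270H/R270H (M/M in the library titles). The flox allele is the LSL•R270H allele before recombination and is functionally null. In the R270H/R270H group tamoxifen had activated villin-CreER, a recombinase driven by a promoter of intestinal epithelium, so that both alleles expressed p53 with a missense change at codon 270. The flox/flox group is thus the same allele without recombination, and the +/+ group differs from it in the Trp53 locus itself. The paper describes tamoxifen for the mice that became R270H/R270H and does not state it for the +/+ and flox/flox mice. If only R270H/R270H mice received it, treatment and allele cannot be told apart in comparisons with that group.

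Microtubules are built from dimers of one alpha and one beta tubulin, and mammals encode several isotypes of each that differ mainly in their acidic C-terminal tails. Tuba1b, Tuba1c, Tubb5 and Tubb4b are the broadly expressed isotypes of dividing cells, Tuba1a, Tubb2a, Tubb2b, Tubb3 and Tubb4a are best known from brain, and Tubb6 is a more divergent beta isotype. Free dimers lower the stability of tubulin mRNAs, and enzymes add or remove the terminal tyrosine of alpha tubulin, acetylate it and attach glutamates to the tails.

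The coding ends of the beta members except Tubb6, and of Tubb4b, are shown because they encode the C-terminal tails. Each line gives the last 60 coding bases before the stop codon, 5′ to 3′, read from the GENCODE M21 transcripts of GRCm38. Capitals mark bases that differ from Tubb5 in an alignment, of which there were 10 in Tubb4a, 15 in Tubb2a, 18 in Tubb2b, 25 in Tubb3 and 19 in Tubb4b, a further broadly expressed isotype.
Tubb5: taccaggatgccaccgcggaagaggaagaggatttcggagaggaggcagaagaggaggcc
Tubb4a: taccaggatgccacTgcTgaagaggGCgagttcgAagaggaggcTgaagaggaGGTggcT
Tubb2a: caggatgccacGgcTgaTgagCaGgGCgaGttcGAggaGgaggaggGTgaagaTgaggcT
Tubb2b: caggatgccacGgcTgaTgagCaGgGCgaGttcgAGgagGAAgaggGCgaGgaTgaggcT
Tubb3: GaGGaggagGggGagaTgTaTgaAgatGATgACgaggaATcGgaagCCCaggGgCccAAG
Tubb4b: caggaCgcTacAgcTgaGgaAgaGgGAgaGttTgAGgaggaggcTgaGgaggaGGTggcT

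Over the whole coding sequence Tuba1a was 98.3% identical to Tuba1b and 97.1% to Tuba1c. Tuba1b was 97.9% identical to Tuba1c, and Tubb2a 96.5% to Tubb2b. Over whole transcripts, Tuba1a shared stretches of up to 281 bases with Tuba1b and 446 with Tuba1c. The longest shared stretch was 468 bases for Tuba1b and Tuba1c and 551 bases for Tubb2a and Tubb2b. Reads from such near-identical stretches cannot always be assigned to a single isotype. How the counting treated reads that fit more than 1 gene is not given in the sources used here, so the split between Tuba1a, Tuba1b and Tuba1c and between Tubb2a and Tubb2b is uncertain. Tubb4a was 82.3 to 84.5% identical to the other beta tubulins in coding sequence, and its longest identical transcript stretch with any of them was 53 bases. On GRCm38 Tuba1b (chr15:98931425-98934565), Tuba1a (chr15:98949837-98953703) and Tuba1c (chr15:99029891-99038110) are neighbours, as are Tubb2a (chr13:34074274-34078007) and Tubb2b (chr13:34126748-34130466). Tubb4a lies at chr17:57080066-57087782, where its transcript has 4 exons, Tubb5 at chr17:35833921-35838306 and Tuba4a at chr1:75214228-75219865. All 6 tubulin pseudogene entries of the table stood at its lowest value in all 6 libraries.

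The values are rpkm, read numbers divided by gene length and by the depth of the library, which can be compared between genes per length. The lowest value in the table is 1 rpkm, a floor below which levels are unknown, and depth, estimated from steps of 1 read in short genes, was 44.2 to 48.5 M reads (from only 7 genes in flox/flox replicate 1). Trp53 itself was at 75.9 and 74.3 rpkm in +/+, 1.73 and 2.48 in flox/flox and 72.8 and 82.7 in R270H/R270H organoids. The flox/flox libraries stood apart, with a typical s.d. of 0.458 on the log2 scale between the pair and a correlation across genes of 0.932, against 0.095 and 0.126 with 0.996 and 0.993 in the other genotypes. In flox/flox replicate 1, 40 genes with at least 4 rpkm in all the other libraries were at the floor, against 0 to 3 such genes in each of the other libraries. All 6 epithelial markers were expressed in every library (Epcam 280 to 399 rpkm), and all 7 neuron and glia markers were at the floor throughout. Each library came from a different mouse, and in bulk RNA fewer cells of a type and less RNA per cell cannot be told apart.

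Among the 10 members, 1 alpha and 1 beta tubulin dominated in Trp53 +/+ organoids. Tubb4b, a beta tubulin outside the family, stood higher still, at 488 and 487 rpkm. Tuba1b was at 425±0.088 rpkm (mean±s.d., n=2 in each genotype throughout) and Tubb5 at 421±15.5 rpkm, and their libraries overlapped. Tuba1c followed at 134±2.95, Tuba4a at 66.1±3.31 and Tuba1a at 42.3±5.58 rpkm. The lower beta isotypes were Tubb2b at 29.9±4.24, Tubb2a at 19.4±1.76, Tubb6 at 16.1±0.13 and Tubb4a at 4.06±0.052 rpkm. From Tuba1c down to Tubb4a, neighbours in this order did not overlap between libraries. Tubb3, the beta isotype used as a marker of neurons, was at the 1 rpkm floor in all 6 libraries, where 1 rpkm would be about 83 to 91 reads, and was the one member that did not pass the filter of 4 rpkm in at least 1 library.

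**Figure D1:**
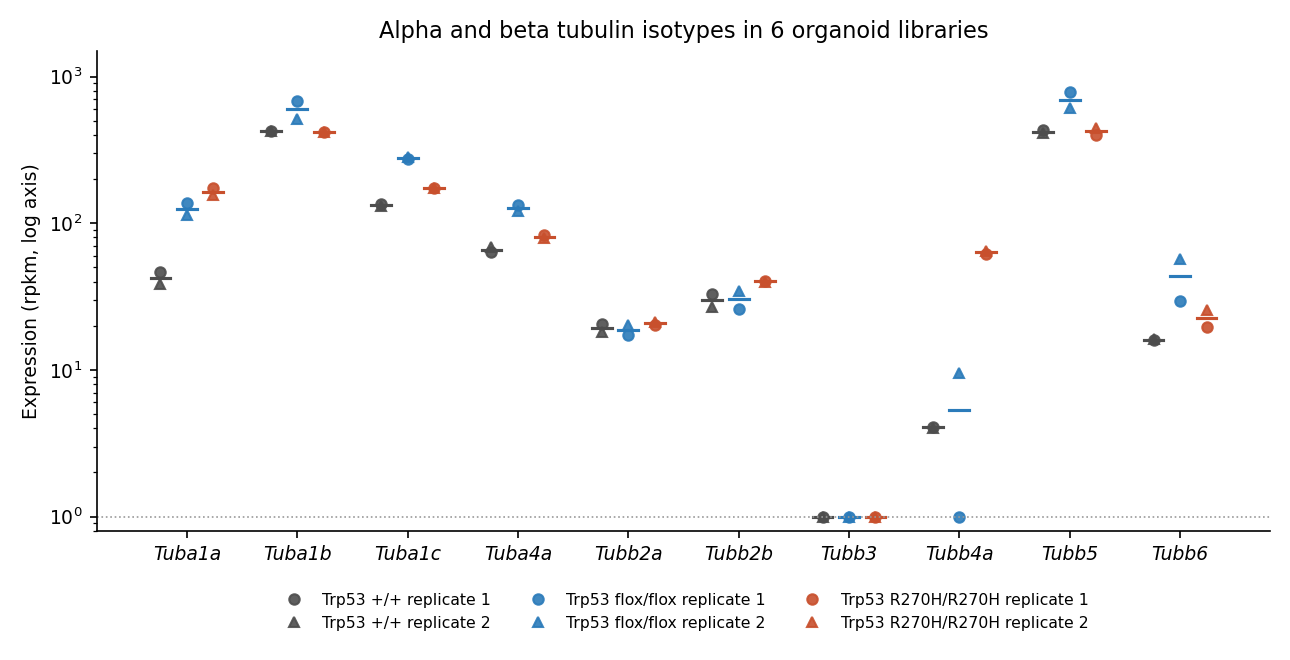
Expression of the 10 tubulin members in each of the 6 libraries on a logarithmic rpkm axis, with circles for replicate 1, triangles for replicate 2, bars for the genotype mean and a dotted line at the 1 rpkm floor. Tubb4a is at 61.8 and 65.0 rpkm in R270H/R270H and below 10 rpkm in the other 4 libraries, Tuba1a is lowest in both +/+ libraries, and Tubb3 is at the floor throughout.

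Tubb4a, the member that led to the choice of the family, was measured at 4.09 and 4.02 rpkm in +/+, at 1 and 9.60 rpkm in flox/flox and at 61.8 and 65.0 rpkm in R270H/R270H organoids. The R270H/R270H pair was higher than all 4 remaining libraries, and the ratio of means was 15.6 against +/+ and 12.0 against flox/flox. The log2 fold change against flox/flox, 3.81 with all libraries, was 2.60 without flox/flox replicate 1 and 5.01 without replicate 2, again with no test. At the estimated depths 1 rpkm of Tubb4a stands for about 99 to 108 reads, so the level in +/+ does not rest on a handful of reads. The flox/flox replicates disagreed, replicate 1 at the floor and replicate 2 above both +/+ libraries, and Tubb4a is among the 40 genes that were at the floor in flox/flox replicate 1 alone. Between flox/flox and +/+ the log2 fold change was -0.13 (s.e. 0.75, limma adjusted p = 0.912). Without replicate 1 it was 1.07 and without replicate 2 it was -1.34, so the direction followed whichever flox/flox library was kept. By level Tubb4a was the ninth member in +/+ and stood between Tuba4a and Tubb2b in R270H/R270H organoids.

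Loss of p53 was examined by comparing flox/flox with +/+ organoids, where 3 of the 4 alpha tubulins were called higher. These calls were lost under several of the alternatives given below. Tuba1a and Tuba1c are near-identical in coding sequence, so their calls may not be separate from each other. Limma called 3 of the 9 members that passed the filter higher (Tuba1a, Tuba1c and Tuba4a), and none lower, at an adjusted p under 0.05. Over all 10042 genes tested 4.38% were called higher and 6.9% lower. At an unadjusted p under 0.05, 6 members were higher and 0 lower, and the median log2 fold change of the 9 members was 0.72, against -0.02 for all genes. Fold changes are differences of log2(rpkm+1).

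Tuba1a, a neuronal alpha tubulin, was at 46.3 and 38.4 rpkm in +/+ and at 137 and 114 rpkm in flox/flox organoids. The flox/flox libraries were both above the +/+ libraries, by 2.97-fold in the means (log2 fold change 1.55, s.e. 0.15, limma adjusted p = 0.0118). Tuba1c, a broadly expressed alpha tubulin, was at 136 and 132 rpkm in +/+ and at 276 and 284 rpkm in flox/flox organoids. It was 2.09-fold higher, with a gap between the groups far wider than the spread within them (1.06, s.e. 0.096, limma adjusted p = 0.00951). Tuba4a, whose gene encodes no terminal tyrosine, was at 63.7 and 68.4 rpkm in +/+ and at 133 and 121 rpkm in flox/flox organoids. It was 1.92-fold higher, again without overlap (0.93, s.e. 0.10, limma adjusted p = 0.0134).

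Tuba1b, the most abundant alpha tubulin, was at 425 and 425 rpkm in +/+ and at 679 and 516 rpkm in flox/flox organoids. The flox/flox libraries were above the +/+ libraries but far from each other, and the difference did not pass the test (0.48, s.e. 0.16, limma adjusted p = 0.109). Tubb5, the main beta tubulin of the family, was at 432 and 410 rpkm in +/+ and at 780 and 613 rpkm in flox/flox organoids, and missed the threshold narrowly (0.72, s.e. 0.16, limma adjusted p = 0.0510). Tubb6 was at 16.0 and 16.2 rpkm in +/+ and at 29.6 and 57.3 rpkm in flox/flox organoids, which differed by nearly as much between the replicates as from +/+ (1.30, s.e. 0.32, limma adjusted p = 0.0612). Tubb2a and Tubb2b overlapped between these genotypes, with log2 fold changes of -0.05 (adjusted p = 0.790) and 0.01 (adjusted p = 0.975).

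The log2 fold changes of Tuba1a, Tuba1c and Tuba4a were 1.42 to 1.68, 1.04 to 1.08 and 0.87 to 1.00 over all libraries left out. Without a flox/flox library the spread was estimated from +/+ and R270H/R270H alone, the less variable genotypes, so calls kept there are no support. All 3 calls were lost without any one of the +/+ or R270H/R270H libraries (adjusted p up to 0.164, 0.176 and 0.186) and when only the flox/flox and +/+ libraries were fitted (adjusted p = 0.0724, 0.0784 and 0.0864). With weights for each genotype Tuba1a and Tuba4a lost their calls and Tuba1c kept it. Other gene groups moved in the same libraries. Of 9 proliferation genes 3 were called higher in flox/flox and none lower, beside 4.38% and 6.9% of all genes. They were the mitotic kinases Plk1 (1.05, adjusted p = 0.0298) and Aurka (0.76, adjusted p = 0.0273) and the mitotic cyclin Ccnb1 (0.67, adjusted p = 0.0342). The summed level of the 6 epithelial markers was 2645 to 2681 rpkm in +/+ and 3966 to 4164 rpkm in flox/flox organoids. Of these markers Krt8 (0.70, adjusted p = 0.0329) and Krt19 (0.84, adjusted p = 0.0411) passed the test, Krt18 missed it narrowly (0.61, adjusted p = 0.0510), and Epcam, Cdh1 and Vil1 had adjusted p = 0.312, 0.528 and 0.642. The part of these genes in the tubulin result was not tested.

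**Figure D2:**
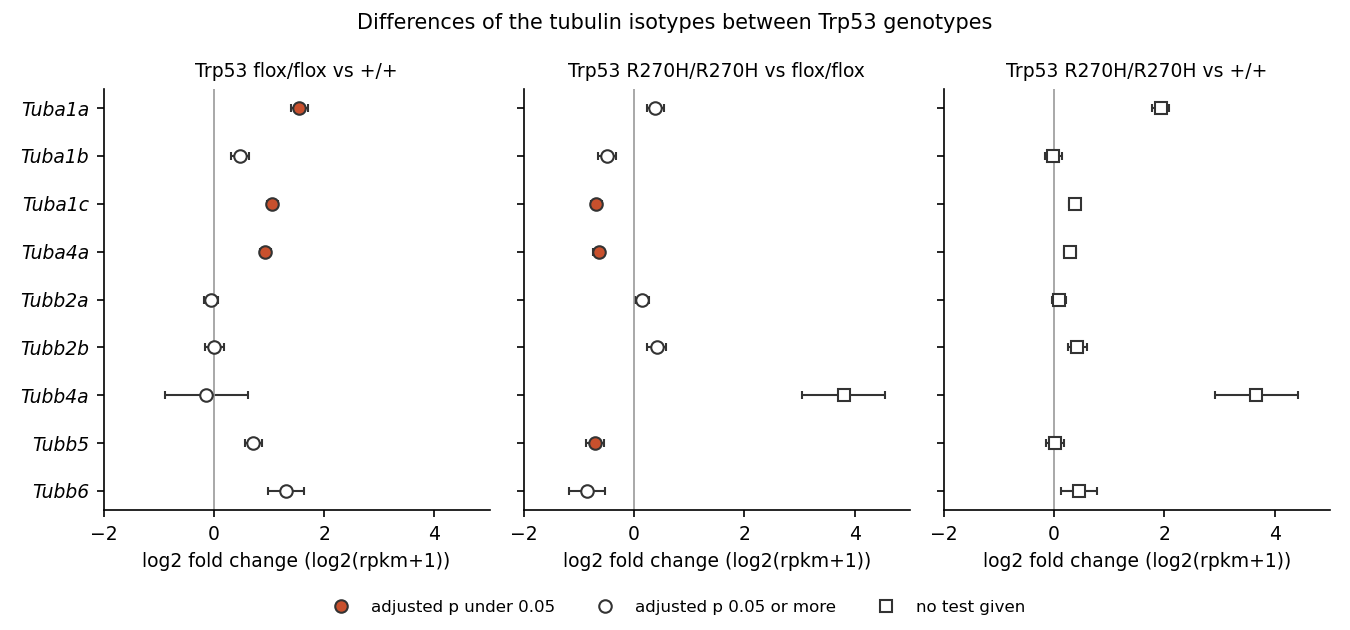
Log2 fold change (difference of log2(rpkm+1), error bars 1 s.e. from limma) of the 9 members that passed the filter, in the 3 comparisons of Trp53 genotypes, which share libraries with each other. Filled circles had an adjusted p under 0.05, open circles did not, and open squares carry no test. Tuba1a, Tuba1c and Tuba4a are to the right of 0 in flox/flox against +/+, and Tuba1c, Tuba4a and Tubb5 are to the left of 0 in R270H/R270H against flox/flox.

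Missense and null organoids were compared for the 8 members other than Tubb4a. In R270H/R270H against flox/flox, 3 of the 8 were called lower (Tuba1c, Tuba4a and Tubb5) and none higher, with limma at an adjusted p under 0.05. Of all genes tested 11.0% were called lower and 13.6% higher. At an unadjusted p under 0.05, 5 of the 8 were lower and 0 higher, and their median log2 fold change was -0.56, against 0.03 for all genes. This comparison uses the same flox/flox libraries as the one before, so the values are set side by side and are not independent of each other.

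Tuba1c was at 175 and 173 rpkm in R270H/R270H organoids, below both flox/flox libraries and above both +/+ libraries (-0.68 against flox/flox, s.e. 0.096, limma adjusted p = 0.0123). Tuba4a was at 83.1 and 79.0 rpkm and lay between the other genotypes in the same way (-0.64, s.e. 0.10, limma adjusted p = 0.0171). Tubb5 was at 400 and 449 rpkm, a range that overlapped +/+ and was below flox/flox (-0.71, s.e. 0.16, limma adjusted p = 0.0347). Tuba1b was at 422 and 422 rpkm, within 1% of its +/+ mean, and Tubb6 at 19.7 and 25.5 rpkm, and neither difference from flox/flox passed the test (adjusted p = 0.0802 and 0.107). Tuba1a was highest in R270H/R270H organoids, at 173 and 155 rpkm, above both flox/flox libraries without passing the test (0.38, s.e. 0.15, limma adjusted p = 0.121). Tubb2b was at 40.3 and 40.0 rpkm, above the other 4 libraries, and Tubb2a at 20.3 and 21.2 rpkm, with adjusted p = 0.132 and 0.405 against flox/flox.

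The calls of Tuba1c, Tuba4a and Tubb5 were lost without any one of the +/+ or R270H/R270H libraries. They were also lost with weights for each genotype and when only these 2 genotypes were fitted. Calls kept without a flox/flox library are no support here either, for the reason given above. The epithelial marker sum was 2181 to 2319 rpkm in R270H/R270H organoids, also below flox/flox, where Krt8, Krt18 and Krt19 were called lower and Epcam, Cdh1 and Vil1 were not (adjusted p = 0.876, 0.312 and 0.300). Of the 9 proliferation genes 2 were called lower and none higher, beside 11.0% and 13.6% of all genes. They were Plk1 (-1.30, adjusted p = 0.0117) and Ccnb1 (-0.59, adjusted p = 0.0278). Of the other genes in the list, Mki67 (0.47) and Top2a (0.20) were higher, and Cdk1, Aurka, Ccna2, Mcm2 and Pcna were lower. None of these was called. The part of the epithelial and proliferation genes in the tubulin result was not tested.

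Between R270H/R270H and +/+, the contrast behind the choice of the family, the other members are given with no p-values. Tuba1a had the largest difference after Tubb4a, 3.88-fold in the means with a log2 fold change of 1.93 (s.e. 0.15). Tuba1c was 1.30-fold and Tuba4a 1.23-fold higher without overlap of the libraries, Tubb2b 1.34-fold and Tubb6 1.40-fold. Tuba1b (log2 fold change -0.01), Tubb5 (0.01) and Tubb2a (0.09) differed least. At an adjusted p under 0.05 limma called 1 of these 8 members, Tuba1a, beside 5.86% of all genes called higher and 6.36% called lower, and nothing is read from that count.

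Composition was described as the share of each member in the summed rpkm of its alpha or beta class. Summed over all genes, rpkm was 412327 and 405869 in +/+, 484930 and 413612 in flox/flox and 377845 and 390118 in R270H/R270H libraries. Sums are therefore not set against equal totals, although scaling factors from median ratios of gene levels were 0.984 to 1.02. The 4 alpha members summed to 667±5.31 rpkm in +/+, 1130±134 in flox/flox and 841±16.8 in R270H/R270H organoids, and the 6 beta members to 491±21.4, 795±84.5 and 572±41.7 rpkm. With Tubb4b counted among the beta tubulins these beta sums were 979, 1382 and 941 rpkm, so the order of R270H/R270H and +/+ turned, and the libraries of these genotypes overlapped. Tuba1a made up 6.89 and 5.78% of the alpha sum in +/+, 11.2 and 11.0% in flox/flox and 20.3 and 18.7% in R270H/R270H organoids. The 3 genotypes did not overlap in this share, although 2 libraries against 2 cannot give an exact two-sided permutation p below 0.333. Tuba1b fell short of its +/+ share (63.3 and 64.0%) in every flox/flox and R270H/R270H library, at 49.5 to 55.4%. Its level did not fall in the same way, with means of 425 rpkm in +/+, 597 in flox/flox and 422 in R270H/R270H organoids. Tubb4a accounted for 0.808 and 0.844% of the beta sum in +/+, at most 1.31% in flox/flox and 11.4 and 10.8% in R270H/R270H organoids. The share of Tubb5 was 85.2 and 86.1% in +/+, 91.2 and 83.4% in flox/flox and 73.6 and 74.6% in R270H/R270H organoids. Counting Tubb4b among the beta tubulins lowered the share of Tubb4a in R270H/R270H organoids to 6.90 and 6.59%, with Tubb4b itself at 39.4 and 38.9%. The share of Tubb5 was then 43.4 and 42.5% in +/+, 52.0 and 48.5% in flox/flox and 44.6 and 45.6% in R270H/R270H organoids.

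**Figure D3:**
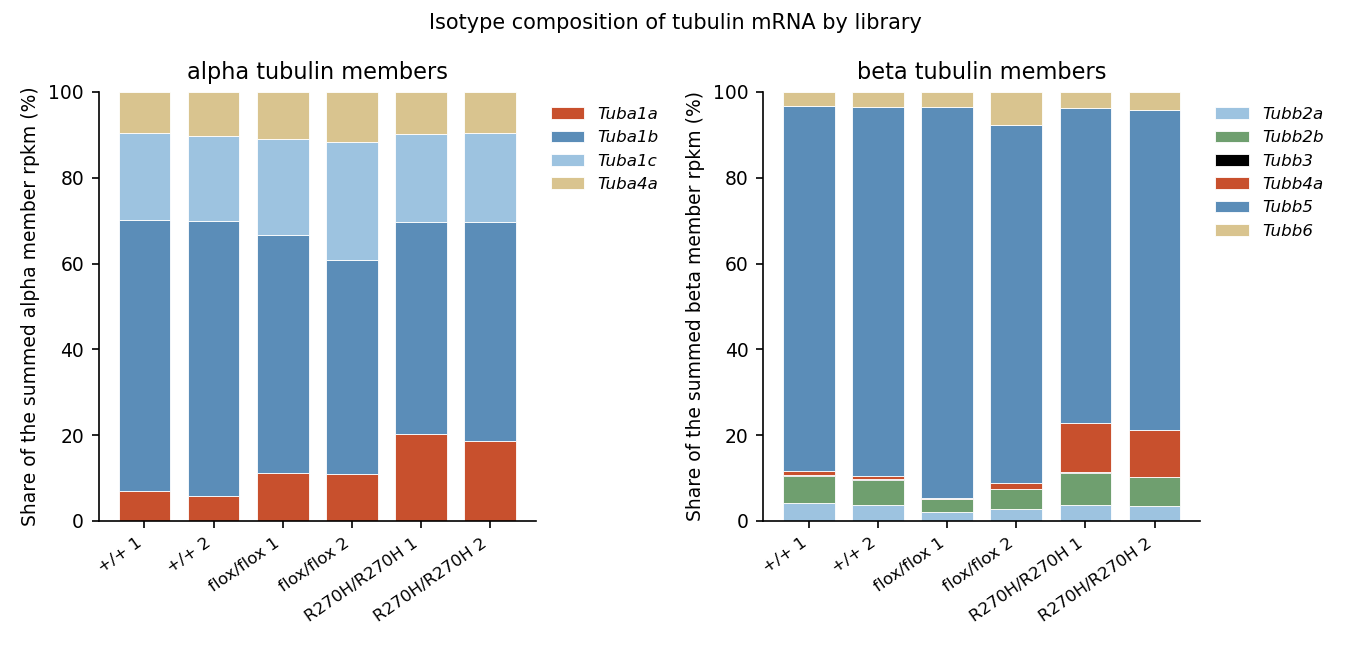
Stacked bars of the share (%) of each isotype in the summed rpkm of the 4 alpha members (left) and the 6 beta members (right) for each library. The Tuba1a share is 5.78 to 6.89% in +/+ and 18.7 to 20.3% in R270H/R270H, and the Tubb4a share is at least 10.8% in both R270H/R270H libraries alone. Tubb3, at the floor, is too thin to be seen.

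Other tubulin genes were measured for comparison. Tubb4b, a beta isotype of dividing and ciliated cells, was at 488 and 487 rpkm in +/+, 645 and 528 in flox/flox and 354 and 383 in R270H/R270H organoids. It was called lower in R270H/R270H than in flox/flox (-0.66, s.e. 0.14, limma adjusted p = 0.0300), while flox/flox against +/+ did not pass (0.26, adjusted p = 0.248). Tubb4a and Tubb4b, closely named but 83.2% identical in coding sequence, thus stood at opposite ends of their ranges in R270H/R270H organoids. Tubg1, the gamma tubulin that nucleates microtubules, was at 35.8 and 38.1 rpkm in +/+ and 76.3 and 53.1 in flox/flox (0.77, adjusted p = 0.0599), and Tubd1, the delta tubulin of centrioles, ranged from 4.87 to 7.58 rpkm with no call. The other 7 of these 10 genes did not pass the filter, and 3 of them (Tubb1, Tuba3a and Tuba3b) were at the floor throughout.

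The rest of the microtubule system was followed in gene lists. Of 22 entries for tubulin folding (prefoldin, CCT chaperonin and tubulin cofactors), 1 was called lower in flox/flox than in +/+ and none higher. Over all genes 6.9% were called lower and 4.38% higher. The call was the cofactor Tbce (-0.58, adjusted p = 0.0342). At an unadjusted p under 0.05, 2 entries were higher, and the list median was 0.15. In R270H/R270H against flox/flox 3 of the 22 were called lower, beside 11.0% of all genes, with a list median of -0.21. They were the dimer-binding G protein Arl2 (-0.89, adjusted p = 0.0291), the chaperonin subunit Cct4 (-0.49, adjusted p = 0.0313) and the cofactor Tbcc. Tbcc reached 4 rpkm in the flox/flox libraries alone (5.69 and 4.14, against 1.85 to 3.03 rpkm in the others), so its call is no support for a difference. Of the 2 genes for tubulin mRNA autoregulation, Scaper, an adaptor of this decay pathway, was called lower in flox/flox than in +/+ (-0.74, adjusted p = 0.0358) and Ttc5, which recognises nascent tubulin, was not.

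Of 25 tubulin-modifying enzymes and cofactors 10 passed the filter and 10 were at the floor in all libraries. Vash2, a carboxypeptidase that removes the terminal tyrosine of alpha tubulin, was at 2.55 and 2.49 rpkm in +/+, 4.37 and 3.32 in flox/flox and 8.84 and 8.66 in R270H/R270H organoids. The R270H/R270H pair was highest, and the difference from flox/flox passed the test (1.02, s.e. 0.15, limma adjusted p = 0.0140). Its partner Svbp was at 4.39 and 3.66, 9.12 and 5.67, and 4.38 and 5.08 rpkm in the same order, with adjusted p = 0.148 against flox/flox. Ttl, the ligase that restores the tyrosine, was below 4 rpkm in all libraries. The deacetylase Hdac6 was also higher in R270H/R270H than in flox/flox (0.54, adjusted p = 0.0461). Vash2 and Hdac6 were the 2 of the 10 called higher and none was lower, beside 13.6% and 11.0% of all genes. None of the 10 was called in flox/flox against +/+, where 2 were higher at an unadjusted p under 0.05.

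Among 11 genes of the gamma-tubulin ring, Mzt1 was called higher (0.49, adjusted p = 0.0342) and Mzt2 lower (-1.02, adjusted p = 0.0183) in R270H/R270H than in flox/flox. Both encode small subunits of the ring. They are 1 call in each direction among the 11 genes, beside 13.6% of all genes called higher and 11.0% lower. Among 17 microtubule-binding genes that passed the filter, 1 was called higher and 2 lower, beside the same shares of all genes. The severing enzyme Spast was higher (0.40, adjusted p = 0.0398). The binding protein Map1s was at 4.38 and 5.81 rpkm in flox/flox and 1.06 and 1.78 in R270H/R270H organoids, and the plus-end protein Mapre2 at 6.19 and 3.74 and at 1.78 and 2.10 rpkm. Both were called lower but passed the filter through flox/flox alone, so nothing is read from these calls. Neither list had a call in flox/flox against +/+, with 4 and 6 genes at an unadjusted p under 0.05 respectively. Over the 8 lists together, proliferation and motile cilia included, 14 of 75 genes were called in R270H/R270H against flox/flox. Of all genes 13.6% were called higher and 11.0% lower. The 14 include Tbcc, Map1s, Mapre2 and Rfx3, which passed the filter through 1 genotype alone. In flox/flox against +/+ 5 of the 75 were called, beside 4.38% of all genes called higher and 6.9% lower. Nearly all of these calls were lost without any one of the +/+ or R270H/R270H libraries. In R270H/R270H against +/+, 2 genes of all 75 that passed were called higher, Vash2 and the severing subunit Katna1 (24.6 and 23.9 against 38.5 and 38.5 rpkm). That is the contrast behind the choice of the family, and nothing is read from the count.

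**Figure D4:**
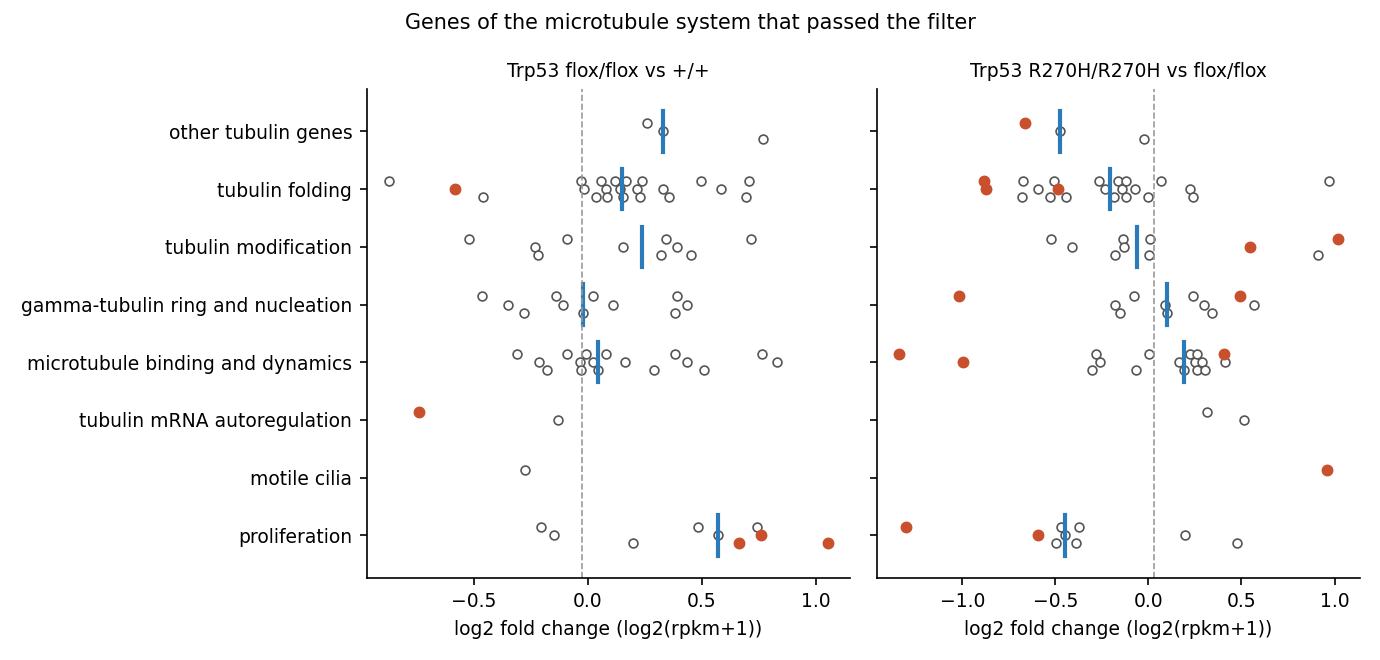
Log2 fold change (difference of log2(rpkm+1)) of each gene of 8 lists of the microtubule system and of proliferation that passed the filter, for flox/flox against +/+ (left) and R270H/R270H against flox/flox (right). Filled points had a limma adjusted p under 0.05, blue bars are list medians where more than 2 genes were measured and the dashed line is the median of all genes. The proliferation list has its median at 0.57 on the left and -0.45 on the right, and most points of the other lists are open.

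Tubb4a was then set beside markers of other cell types. Of 15 genes of motile cilia, which are built on beta IV tubulins, 12 were at the floor in all libraries, Foxj1 among them. Rfx3, a factor of ciliated cells, was at 6.30 and 5.42 rpkm in R270H/R270H against 2.13 to 3.38 rpkm in the other libraries, and passed the filter through R270H/R270H alone. Hydin, a protein of the ciliary axoneme, was at 2.56 and 2.29 rpkm in R270H/R270H and at the floor in the other 4 libraries, and did not pass the filter. Rsph1, the remaining gene above the floor, was at 1.17 and 1.08 rpkm in R270H/R270H and at 1.31 rpkm in flox/flox replicate 2. None of the 7 enteroendocrine markers was above the floor in R270H/R270H organoids, against 5 in +/+ and 2 in flox/flox. Of 5 tuft cell markers Avil alone was above the floor in R270H/R270H organoids, at 34.9 and 31.6 rpkm. Avil was at 19.6 and 22.6 rpkm in +/+ and at 1 and 33.5 rpkm in flox/flox organoids. Of 7 fibroblast markers Vim alone was above the floor in R270H/R270H organoids, at 306 and 284 rpkm against 19.8 to 71.6 rpkm in the other libraries, with Col1a2, Col3a1 and Lum at the floor throughout. Its part in the level of Tubb4a was not tested.

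The 5 genes with profiles nearest to Tubb4a were found among the other 10041 genes that passed the filter, by the root mean square difference of log2(rpkm+1), centred on each gene's mean, over the 6 libraries. Those reported here were Spock2 (0.37), Pnliprp1 (0.65), Dkk3 (0.66) and Cd177 (0.67). Spock2, a secreted proteoglycan, was at 9.67 and 6.89 rpkm in +/+, 1 and 10.2 in flox/flox and 75.9 and 79.0 in R270H/R270H organoids. Dkk3, a secreted protein of the Dickkopf family, was at 12.1 and 11.5, 1.47 and 13.5, and 52.2 and 52.9 rpkm in the same order. Both were lowest in flox/flox replicate 1, as Tubb4a was, and so was Pnliprp1 (1 rpkm). Cd177 was lowest in +/+ replicate 2 (1.33 rpkm) and was at 2.96 rpkm in flox/flox replicate 1. As these genes were picked for likeness over the same 6 libraries, nothing is read from it. Among the other members that passed the filter, Tuba1a was the nearest at rank 922 (1.60) and Tubb5 the farthest at rank 8175 (2.11). The ranks rest largely on the R270H/R270H level that led to the choice of Tubb4a, so nothing is read from them either. Ranks of tubulins outside the family are not given.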

How the data were processed

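The authors sequenced poly(A) RNA from stranded libraries on an Illumina HiSeq, mapped the reads to mm10 and deposited rpkm values calculated with StrandNGS. Its version, annotation and treatment of reads shared between genes are not given in the sources used here. Values below 1 rpkm appear to have been raised to 1, as 23760 genes were at 1 in all libraries.

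The 10042 genes that reached 4 rpkm in any library were compared as log2(rpkm+1) with limma 3.58.1 in R 4.3.3 (lmFit, eBayes with trend, all 6 libraries, two-sided, Benjamini-Hochberg adjustment over all genes, threshold 0.05). A gene is named if it was a member, Trp53, a tubulin outside the family past the filter, one of up to 3 called genes with the largest change in a list and comparison, or one of the 5 nearest to Tubb4a. Of the 5 nearest, 1 is not reported here. A few more, such as Svbp and the markers, were named after their values were seen. Members and lists were chosen with earlier results of these data known. Sequences were read from GENCODE M21 (GRCm38) with Python 3.11.15. Alternatives covered pseudocounts, filters, scaling, weights, blocks and left-out libraries. Replicate numbers of different genotypes name different mice.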

Additional observations from a re-analysis of the deposited data

How the results depend on the processing

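With weights for each genotype the members called numbered 5 in R270H/R270H against +/+, 1 in flox/flox against +/+ and 0 in R270H/R270H against flox/flox, and with only the 2 genotypes compared in the fit 5, 0 and 0. A filter above 1 rpkm gave 2 in R270H/R270H against +/+. Leaving out 1 library gave 0 to 5, 0 to 7 and 0 to 6 members. The counts over all genes moved with them. With weights 3200 genes were called higher and 2787 lower in R270H/R270H against +/+, 35 and 115 in flox/flox against +/+ and 377 and 157 in R270H/R270H against flox/flox. Without flox/flox replicate 2, 3201 and 3690 of 9944 genes were called in flox/flox against +/+, and without a +/+ library 0 and 8 to 11. All of the 0 values came without a +/+ or R270H/R270H library, and the rises without a flox/flox library. The lone library left in a genotype is then assumed to vary like the others. The cause was not tested. The genes called in the 8 lists, proliferation and motile cilia included (2, 5 and 14 of 75), became 34, 0 and 0 with weights, 35, 0 and 1 with 2 genotypes only, 8 and 8 in the first 2 comparisons with a filter above 1 rpkm, and 0 to 34, 0 to 57 and 0 to 56 without 1 library.

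With the replicate number as a block 1, 3 and 2 members were called (Tubb5 lost its call against flox/flox) and 1, 0 and 4 genes of the 8 lists, beside 255, 71 and 668 of all genes higher and 295, 209 and 488 lower. Same-numbered deviations correlated at 0.12, -0.29 and -0.20, so the numbers did not pair the libraries. Exchanging the R270H/R270H numbers, chosen after seeing the data, gave 1, 4 and 3 members and 1 and 3 genes of the lists in the first 2 comparisons.

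Tubb2a in flox/flox against +/+ changed sign without a library (-0.15 to 0.0523, 0.0377 without +/+ replicate 1), as did Tubb2b (-0.18 to 0.20, -0.13 without +/+ replicate 2, and -0.0370 with upper-quartile scaling) and Tubb4a (-1.34 to 1.07). None of the tested calls of Tuba1a, Tuba1c, Tuba4a and Tubb5 changed sign. Tubb5 in flox/flox against +/+ passed under 4 alternatives (lowest adjusted p = 0.0448). With Tubb4b included, a choice made after seeing the data, the mean share of Tubb4a was 0.414% in +/+ and 6.75% in R270H/R270H, and the beta sums were 979, 1382 and 941 rpkm in +/+, flox/flox and R270H/R270H. A fit with no filter could not be used, because the 23760 genes at the floor have no spread. Values under 1 rpkm are not resolved at any depth.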
